A study of Mus musculus with 15 samples.

Results

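The lungs of homozygous Ifit2 mutant mice were compared after and without a challenge with ovalbumin (OVA), the model allergen from hen's egg. The comparison used 7 of the 15 arrays of the series, namely those that the labels give as challenged mutants (n = 4) and unchallenged mutants (n = 3), with 1 array per mouse. The other 8 arrays hold challenged wild types (n = 4) and unchallenged wild types (n = 4), which shared the estimate of spread and served to compare responses. All mice were C57BL/6, aged 22 weeks, and total RNA of whole lung was hybridised to an Illumina mouse beadchip of 25697 probes. The labels give the unchallenged treatment as control. The amount, route and timing of the OVA challenge, the nature of the mutation and any sham treatment of control mice are not stated by the sources used here. The mutation was carried by the whole animal as far as the labels state it, and challenged and unchallenged mutants shared it. Although the series describes male mutants, Xist, which silences one X chromosome in females, was detected with both probes on all 7 mutant arrays. It was likewise detected on all 8 wild-type arrays.

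Sensitised airways respond to inhaled allergen through the type 2 cytokines interleukin-4, interleukin-5 and interleukin-13. Interleukin-13 turns airway secretory cells into mucus-filled goblet cells and, with interleukin-4, drives macrophages to an alternative state marked by arginase and chitinase-like proteins, largely through the transcription factor STAT6. Chemokines such as the eotaxins recruit eosinophils, and Ifit2 itself encodes an interferon-induced protein that binds viral RNA.

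Ifit2 was undetected on all 7 mutant arrays with both of its probes and detected on all 8 wild-type arrays. The brighter probe stood at a normalised log2 intensity of 5.05, 5.17, 5.20 and 5.98 in challenged mutants, against 5.08, 4.91 and 5.22 in unchallenged mutants, and it differed by 0.28 ± 0.19 (SE; adjusted p = 0.269). Sftpc, Scgb1a1 and Cldn18, which mark alveolar type 2, club and alveolar epithelial cells, were detected on all 7 mutant arrays. Challenged mutants gave dimmer arrays, with a mean signal of 417 ± 73.7 intensity units (SD, n = 4) against 637 ± 25.7 in unchallenged mutants (SD, n = 3). The exact two-sided permutation p was 0.0286, the smallest these group sizes allow. Challenged mutants detected 45.0 ± 3.79% of the probes and unchallenged mutants 51.8 ± 1.19%, with an exact two-sided permutation p of 0.0571. Every challenged mutant array was dimmer than every unchallenged one, so most list counts that moved by over 1.5 times with mean array signal as a covariate are given with that value too. Because brightness and challenge go together on these arrays, that fit cannot cleanly separate them, and lost calls under it do not show their cause. The part of brightness in the changes was not tested. Whole-lung RNA cannot tell apart a change in the number of cells of a type and a change in RNA per cell.

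Among 10194 genes tested, each by its brightest probe, 1534 were called higher after challenge in mutants (15%) and 1548 lower (15.2%), which is 30.2% in either direction at an adjusted p under 0.05 from limma. The list counts below are to be read beside these shares of 15% and 15.2%. Called genes that differed at least 2-fold numbered 345 higher and 411 lower. At 4-fold or more there were 38 higher and 12 lower, and at 8-fold or more 14 higher and 0 lower. The 4 challenged and 3 unchallenged arrays did not overlap for 38.3% of the genes. These directions are relative to the other genes of an array. With arrays scaled to a common median the median of all probes stood at -0.42, and 9.36% of the called probes were higher, against 44.3% after quantile normalisation. Among 216 called genes picked by the naming rule, 48 were called in the same direction under all 22 other settings tried.

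The gene with the largest called change was Rnase2a, an eosinophil-associated ribonuclease, at 13.01, 11.99, 12.16 and 11.98 in challenged mutants, against 6.35, 4.85 and 8.39 in unchallenged mutants. Its groups were far apart, and it was 54.1-fold higher in challenged mutants (log2 5.76 ± 0.57, SE; adjusted p = 6.50e-05). On unchallenged mutant 2 its value, 4.85, was below that of the undetected brighter probe of Ifit2, so this fold rests in part on background. Fxyd4, a regulatory subunit of the sodium pump, had the smallest p among the 12 genes with the largest rises, with 9.75, 9.44, 9.05 and 8.95 in challenged mutants, against 5.74, 5.29 and 5.59 in unchallenged mutants. It was called under every setting and was 13.5-fold higher (log2 3.76 ± 0.23, SE; adjusted p = 1.97e-06). Arg1, the arginase of alternatively activated macrophages, reached 11.55, 10.67, 10.38 and 10.30 in challenged mutants, against 6.42, 6.26 and 6.49 in unchallenged mutants. Challenged mutant 1 was the highest and the groups did not overlap, with a 20.2-fold rise (log2 4.34 ± 0.46, SE; adjusted p = 6.88e-05). At the lower end stood Pon1, a paraoxonase carried on lipoproteins, at 7.48, 7.82, 7.92 and 7.45 in challenged mutants, against 10.15, 11.02 and 10.02 in unchallenged mutants. Its challenged arrays lay close together and below every unchallenged array, and it was 6.64-fold lower (log2 -2.73 ± 0.30, SE; adjusted p = 8.37e-05).

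The other large falls were in genes of several lung cell types. Epas1, the hypoxia-inducible factor of endothelium, gave 6.80, 7.40, 7.01 and 6.70 in challenged mutants, against 9.27, 9.42 and 9.07 in unchallenged mutants. Cyp2b23, a cytochrome P450, gave 6.16, 6.51, 5.81 and 4.81 in challenged mutants, against 8.09, 8.53 and 8.03 in unchallenged mutants. In both genes every challenged array was below every unchallenged one. The log2 change was -2.28 ± 0.24 for Epas1 (SE; adjusted p = 6.88e-05) and -2.40 ± 0.32 for Cyp2b23 (SE; adjusted p = 0.000222). Acot1, an acyl-CoA thioesterase, fell by 2.10 (adjusted p = 0.00119). Itga1, a collagen-binding integrin subunit, fell by 2.01 (adjusted p = 0.000213). Tgfbr3, a co-receptor for transforming growth factor beta, fell by 2.21 (adjusted p = 0.00357). Fam107a fell by 2.14 (adjusted p = 0.00219). Fkbp14, a prolyl isomerase of the endoplasmic reticulum, was detected on 0 challenged and 3 unchallenged mutant arrays and was at least 2.63-fold lower (adjusted p = 0.000612). Of these 7 genes, Epas1 kept its call under all settings, while each of the other 6 lost it with mean signal as a covariate. The size of some falls differed between probes of a gene, all of them called lower. The 3 probes of Epas1 ranged from -2.28 to -0.63. Those of Tgfbr3 stood at -2.21 and -0.96, and those of Acot1 at -2.10 and -1.02.

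**Figure D1:**
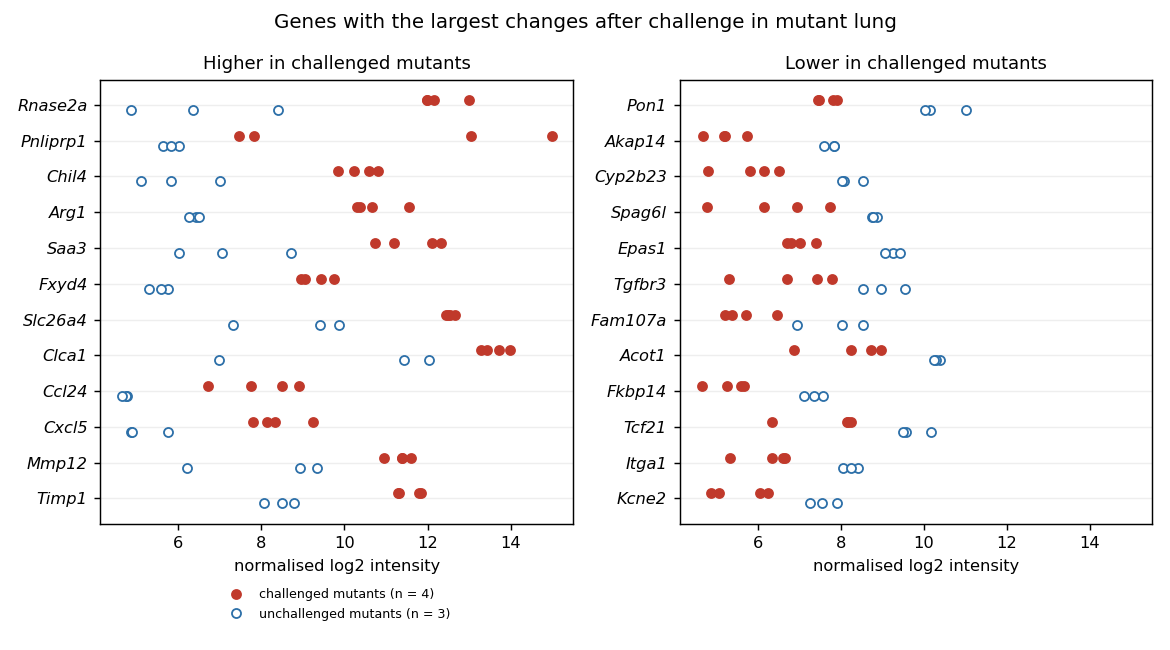
Normalised log2 intensity of the 12 genes with the largest called rises (left panel) and the 12 with the largest called falls (right panel) on each mutant array, with filled points for challenged and open points for unchallenged mice. The groups do not overlap for any of them, as the choice of the genes required, while the spread within a group differs widely, from 12.45 to 12.65 for Slc26a4 to 7.47 to 14.99 for Pnliprp1 among challenged mutants.

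Of 12 type 2 cytokine and alarmin genes listed, 4 passed the detection filter, and the genes for interleukin-4, interleukin-5 and interleukin-13 were not among them. Il33, an alarmin of airway and alveolar epithelium, stood at 11.77, 11.71, 11.66 and 10.68 in challenged mutants, against 11.04, 9.88 and 10.48 in unchallenged mutants. Challenged mutant 4 was within the unchallenged range, and Il33 rose by 0.99 (adjusted p = 0.0189). Without unchallenged mutant 2 the change was 0.70 and not called. Il6, an inflammatory cytokine, lay at 6.17, 6.55, 6.63 and 6.66 in challenged mutants, against 5.40, 5.70 and 5.45 in unchallenged mutants, without overlap, and rose by 0.98 (adjusted p = 0.00179). Tslp, another alarmin, differed by 0.17 ± 0.19 (SE; adjusted p = 0.500), and Csf2, which encodes granulocyte-macrophage colony-stimulating factor, differed by -0.03 ± 0.28 (SE; adjusted p = 0.947). The count of higher genes in this list was 1 with mean signal as a covariate. Receptors and signalling genes of the type 2 pathway gave 0 higher and 1 lower of 10 tested (10% lower, against 15.2% over all genes). That 1 was Socs2, a suppressor of cytokine signalling, which fell by 0.70 (adjusted p = 0.00785) and was not called with mean signal as a covariate. Stat6 differed by -0.41 ± 0.31 (SE; adjusted p = 0.329), and Il13ra1, a subunit of the interleukin-13 receptor, differed by -0.41 ± 0.20 (SE; adjusted p = 0.133). In this list of receptors 2 genes were higher without unchallenged mutant 1, and 1 without challenged mutant 1 or without challenged mutant 4.

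CC chemokines responded broadly, with 9 higher and 1 lower of 16 tested and a median log2 change of 1.41. The counts were 8 higher and 2 lower with mean signal as a covariate, and 9 higher without unchallenged mutant 2. Without challenged mutant 4 the count of lower genes was 2. Ccl11, the first eotaxin, gave 9.51, 9.44, 9.23 and 9.22 in challenged mutants, against 6.51, 6.67 and 7.14 in unchallenged mutants. All 4 challenged arrays stood more than 2 log2 units above the highest unchallenged array, and it rose by 2.58 ± 0.31 (SE; adjusted p = 0.000137). Ccl24, the second eotaxin, was detected on 4 of 4 challenged and 0 of 3 unchallenged mutant arrays, with 8.91, 8.49, 7.74 and 6.72 in challenged mutants, against 4.77, 4.74 and 4.64 in unchallenged mutants. It was at least 5.29-fold higher (adjusted p = 0.00321). Ccl7, a monocyte chemoattractant, gave 9.81, 10.04, 9.60 and 9.28 in challenged mutants, against 7.26, 5.76 and 6.91 in unchallenged mutants. The groups were again apart, and it rose by 3.04 ± 0.38 (SE; adjusted p = 0.000155). Ccl8 showed a wide unchallenged spread, with 10.90, 10.73, 10.56 and 9.56 in challenged mutants, against 9.03, 5.54 and 8.02 in unchallenged mutants, and rose by 2.91 (adjusted p = 0.00345), or by 1.91 without unchallenged mutant 2. Ccl2 was detected on 3 challenged and 0 unchallenged arrays, and it was at least 1.86-fold higher (adjusted p = 0.00421). Ccl17, a ligand of the receptor CCR4 of type 2 helper T cells, rose by 1.96 (adjusted p = 0.00283). Ccl3 and Ccl4, inflammatory chemokines of macrophages, were both higher: Ccl3 rose by 1.57 (adjusted p = 0.00238) and Ccl4 rose by 2.48 (adjusted p = 0.000230). Ccl9 rose by 2.53 (adjusted p = 0.000505). The member that fell was Ccl27a, an epithelial chemokine, which fell by 0.65 (adjusted p = 0.00317). Ccl5, Ccl6, Ccl12, Ccl19, Ccl21a and Ccl25 were not called.

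CXC chemokines gave 6 higher and 2 lower of 13 tested, 4 higher and 1 lower with mean signal as a covariate, and 3 higher and 4 lower after median scaling. The count of lower genes was 0 without unchallenged mutant 2, 1 without unchallenged mutant 1 and 3 without challenged mutant 2. Cxcl5, which attracts neutrophils through CXCR2, lay at 7.80, 9.25, 8.33 and 8.14 in challenged mutants, against 5.74, 4.85 and 4.88 in unchallenged mutants. Challenged mutant 2 was the highest, and Cxcl5 rose by 3.22 ± 0.41 (SE; adjusted p = 0.000178). Cxcl1, a ligand of the same receptor, rose by 2.36 (adjusted p = 0.00238). Pf4, the platelet factor, stood at 10.47, 10.62, 10.58 and 10.26 in challenged mutants, against 9.19, 9.16 and 9.29 in unchallenged mutants and rose by 1.27 (adjusted p = 0.000260). Cxcl10, a ligand of CXCR3, rose by 1.08 (adjusted p = 0.00615), or by 0.68 without unchallenged mutant 2, whereas Cxcl9, a ligand of the same receptor, differed by 0.70 ± 0.67 (SE; adjusted p = 0.441). The unchallenged values of Cxcl9 ran over a wide range, 9.47, 5.50 and 8.33. Cxcl13, which attracts B cells, differed by 1.84 ± 0.72 (SE; adjusted p = 0.0675) with its highest value, 11.16, on challenged mutant 4. Cxcl14 fell by 0.89 (adjusted p = 0.0122). The call of Cxcl14 (-0.84 to -0.78) ended when any 1 of unchallenged mutants 1 and 2 was left out. One of the 2 lower members, Cxcl12, has no settled direction, since among its 3 probes the brightest was called lower (-0.92) and another higher (0.78). Among 9 chemokine receptors 1 was higher and 1 lower (11.1% each, against 15% and 15.2% over all genes tested). The counts were 0 and 0 with mean signal as a covariate. The count of higher genes was 0 without unchallenged mutant 2 or without challenged mutant 3, and 2 without unchallenged mutant 1. The median of the list relative to all genes was 0.25, but -0.24 without unchallenged mutant 2 and -0.39 with the signal covariate. Cx3cr1, the fractalkine receptor of monocytes and macrophages, gave 6.66, 6.45, 5.88 and 5.47 in challenged mutants, against 7.95, 6.82 and 7.14 in unchallenged mutants and fell by 1.18 (adjusted p = 0.00705).

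Mucus genes gave 8 higher and 0 lower of 12 tested, with a median log2 change of 1.63. Muc5ac, the inducible gel-forming airway mucin, lay at 9.00, 9.63, 9.14 and 7.63 in challenged mutants, against 6.52, 4.98 and 6.44 in unchallenged mutants. The lowest challenged value came from challenged mutant 4 and still exceeded every unchallenged value, and Muc5ac rose by 2.87 ± 0.46 (SE; adjusted p = 0.000724). Foxa3, a transcription factor of goblet cells, gave 7.57, 8.88, 8.04 and 7.08 in challenged mutants, against 6.03, 5.35 and 6.07 in unchallenged mutants and rose by 2.08 (adjusted p = 0.000744). Ern2, the endoplasmic reticulum stress sensor of mucous cells, rose by 1.81 (adjusted p = 0.000171). Tff1, a trefoil peptide secreted with mucin, rose by 2.47 (adjusted p = 0.000114). Slc5a1, a sodium-glucose cotransporter, rose by 1.77 (adjusted p = 0.000427). Itln1, a secreted lectin, rose by 1.49 (adjusted p = 0.00608), and Bpifb1, an abundant secretory protein of airways, rose by 1.16 (adjusted p = 0.00347). The count was 5 with mean signal as a covariate. Spdef, Tff2, Bpifa1 and Creb3l1 were not called.

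Clca1, a secreted goblet cell protein, differed widely between unchallenged mutants. It stood at 13.42, 13.72, 13.98 and 13.29 in challenged mutants, against 11.44, 6.97 and 12.04 in unchallenged mutants. Unchallenged mutants 1 and 3 lay within 3 log2 units of the challenged arrays, whereas unchallenged mutant 2 lay far below. Clca1 rose by 3.45 ± 1.09 (SE; adjusted p = 0.0279), and without unchallenged mutant 2 its change was 1.86 and not called. It was not called without challenged mutant 3 either (3.33). Retnla, a resistin-like molecule induced through interleukin-4 and interleukin-13, gave 15.48, 15.36, 15.44 and 15.30 in challenged mutants, against 12.98, 10.56 and 13.55 in unchallenged mutants. It rose by 3.03 ± 0.51 (SE; adjusted p = 0.000983), although its challenged values lie close to 15.55, the highest value on any mutant array, where a rise has little room. Chil3, a chitinase-like protein of macrophages, had 14.47, 14.29, 14.54 and 14.24 in challenged mutants, against 13.88, 12.48 and 14.09 in unchallenged mutants and rose by 0.90 (adjusted p = 0.0261). Without unchallenged mutant 2 its change was 0.40, and without challenged mutant 3 it was 0.85, neither of them called. In all 3 genes unchallenged mutant 2 was the lowest of the mutant arrays. Averaged over the goblet list, relative to the unchallenged mutant mean, it stood at -0.67 on the log2 scale, against 0.31 and 0.36 for the other unchallenged mutants.

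Of 18 ion transport genes tested 3 were higher (16.7%, near the 15% over all genes tested) and 5 lower (27.8%, against 15.2%). Slc26a4, the anion exchanger pendrin, gave 12.50, 12.65, 12.54 and 12.45 in challenged mutants, against 9.86, 7.32 and 9.40 in unchallenged mutants. Its 4 challenged values were nearly equal, and it rose by 3.68 ± 0.43 (SE; adjusted p = 0.000124). Cftr, the chloride channel, rose by 0.52 (adjusted p = 0.0297), a direction that turned after median scaling (-0.07). The falls were in Scnn1g, the gamma subunit of the epithelial sodium channel, which fell by 0.94 (adjusted p = 0.00291), and Kcne2, a potassium channel subunit, which fell by 2.01 (adjusted p = 0.000628). Aqp5, the water channel of type 1 alveolar cells, fell by 0.64 (adjusted p = 0.0100), and Aqp4 fell by 0.68 (adjusted p = 0.0383). Slc26a9, a chloride transporter, fell by 0.82 (adjusted p = 0.0141). The calls of Aqp5 (-0.55) and Slc26a9 (-0.80) ended without unchallenged mutant 2. The call of Cftr (0.46 to 0.56) ended when any 1 of challenged mutants 3 and 4 or unchallenged mutants 1, 2 and 3 was left out. The call of Aqp4 (-0.76 to -0.46) ended when any 1 of challenged mutants 2 and 4 or unchallenged mutants 1, 2 and 3 was left out. With mean signal as a covariate 2 genes were higher and 0 lower, and without unchallenged mutant 2 there were 2 higher and 2 lower.

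Secretory and ciliated cell genes fell in part. Of 13 club cell genes 8 were called lower and 1 higher, the 1 being Retnla. Cyp2f2, the cytochrome P450 that marks club cells in mouse airways, lay at 11.76, 12.84, 12.93 and 12.55 in challenged mutants, against 14.19, 14.90 and 14.35 in unchallenged mutants. Every challenged array was more than 1 log2 unit below every unchallenged array, and Cyp2f2 fell by 1.96 ± 0.30 (SE; adjusted p = 0.000555). Gsta3, a glutathione transferase, fell by 1.23 (adjusted p = 0.00164). Hp, which encodes haptoglobin, fell by 0.99 (adjusted p = 0.000879). Cyp2a5 fell by 1.70 (adjusted p = 0.00505), Ces1d, a carboxylesterase, fell by 0.95 (adjusted p = 0.00489) and Gabrp fell by 1.28 (adjusted p = 0.0256). The call of Gabrp ended when any 1 of challenged mutants 1, 3 and 4 or unchallenged mutants 1 and 2 was left out. Scgb1a1, the main secretory protein of club cells, differed by 0.03 ± 0.11 (SE; adjusted p = 0.874), but with 15.16 to 15.55 in challenged mutants and 15.36 on each unchallenged array it lies at the top of the scale. The club cell counts were 0 higher and 1 lower with mean signal as a covariate, and the count of lower genes was 5 without unchallenged mutant 2.

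Ciliated cell genes gave 0 higher and 7 lower of 14 tested. Akap14, an anchoring protein of the axoneme, was detected on 0 of 4 challenged and 3 of 3 unchallenged arrays, with 5.22, 5.74, 5.18 and 4.68 in challenged mutants, against 7.85, 7.85 and 7.59 in unchallenged mutants. It was at least 3.50-fold lower (adjusted p = 5.01e-05) and kept its call under every setting. Spag6l, an axonemal central pair protein, was more variable, at 6.16, 7.75, 6.95 and 4.78 in challenged mutants, against 8.87, 8.75 and 8.79 in unchallenged mutants, and fell by 2.39 (adjusted p = 0.00335). Pifo fell by 0.90 (adjusted p = 0.0114), Tppp3 fell by 0.77 (adjusted p = 0.0189) and Tekt1, a tektin of axonemal microtubules, fell by 0.96 (adjusted p = 0.0218). The call of Tekt1 (-0.92 to -0.81) ended when any 1 of challenged mutant 4 or unchallenged mutants 1 and 2 was left out. The call of Tppp3 (-0.75 to -0.70) ended when any 1 of unchallenged mutants 2 and 3 was left out. Foxj1, the transcription factor that drives motile ciliogenesis, differed by -0.11 ± 0.32 (SE; adjusted p = 0.814). The count of lower genes was 1 with mean signal as a covariate, 11 after median scaling, 3 without unchallenged mutant 2, 4 without unchallenged mutant 3 and 4 without challenged mutant 4, which had the lowest mean level of the list (-1.21).

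Alveolar type 1 genes gave 8 lower and 1 higher of 11 tested. Emp2, an epithelial membrane protein, stood at 12.19, 12.38, 12.13 and 11.92 in challenged mutants, against 12.97, 12.92 and 12.90 in unchallenged mutants and fell by 0.77 (adjusted p = 0.00232). Cav2, a caveolin, fell by 1.27 (adjusted p = 0.00374), and its partner Cav1 fell by 0.66 (adjusted p = 0.00323). Igfbp2 is the member called higher, but its probes gave opposite calls. The count of lower genes was 0 with mean signal as a covariate and 5 without unchallenged mutant 2. Alveolar type 2 genes gave 0 higher and 4 lower of 15 (26.7% lower, against 15.2% over all genes tested), and 1 lower with mean signal as a covariate. Sftpb, surfactant protein B, had 11.44, 11.58, 11.37 and 11.00 in challenged mutants, against 12.90, 12.71 and 12.08 in unchallenged mutants, and its groups did not overlap. It fell by 1.22 ± 0.21 (SE; adjusted p = 0.00125). Etv5, a transcription factor of type 2 cells, fell by 1.71 (adjusted p = 0.00539). Lamp3, a lamellar body protein, fell by 0.84 (adjusted p = 0.00475), and Abca3, its lipid transporter, fell by 0.60 (adjusted p = 0.0324). The call of Abca3 (-0.62 to -0.50) ended when any 1 of challenged mutants 1 and 2 or unchallenged mutants 1, 2 and 3 was left out. Sftpc, surfactant protein C, differed by -0.30 ± 0.14 (SE; adjusted p = 0.129). Relative to the median of all genes the median of the type 2 list turned from lower to higher in 2 fits, to 0.09 after median scaling and to 0.08 with the signal covariate.

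Alternatively activated macrophage genes gave 12 higher and 1 lower of 16 tested, with a median log2 change of 2.00. The counts were 7 higher and 0 lower with mean signal as a covariate. Chil4, a chitinase-like protein, lay at 10.23, 10.60, 10.81 and 9.84 in challenged mutants, against 5.83, 5.10 and 7.00 in unchallenged mutants. It rose by 4.40 ± 0.51 (SE; adjusted p = 0.000125). Clec7a, the beta-glucan receptor dectin-1, gave 12.18, 11.98, 12.37 and 12.09 in challenged mutants, against 10.30, 9.07 and 10.36 in unchallenged mutants with its brightest probe. That probe rose by 2.24 (adjusted p = 9.26e-05) and kept its call under every setting, as did Clec10a, a galactose-type lectin receptor, which rose by 1.86 (adjusted p = 0.000125). Of the 4 Clec7a probes the lowest stood at -0.12, and not all were called. Chia1, the acidic chitinase, rose by 2.14 (adjusted p = 0.000387). Mmp12, the macrophage elastase, gave 11.38, 11.39, 11.60 and 10.94 in challenged mutants, against 8.92, 6.20 and 9.34 in unchallenged mutants and rose by 3.17 (adjusted p = 0.00104). Cd163, a scavenger receptor, rose by 1.21 (adjusted p = 0.00171). Alox15, a lipoxygenase, was detected on 4 challenged and 0 unchallenged mutant arrays, and it was at least 2.73-fold higher (adjusted p = 0.00329). Tgm2, transglutaminase 2, was the member called lower and fell by 0.41 (adjusted p = 0.0397). The call of Tgm2 (-0.38 to -0.29) ended when any 1 of challenged mutants 3 and 4 or unchallenged mutants 1 and 2 was left out. Mrc1, Mgl2 and Irf4 were not called.

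**Figure D2:**
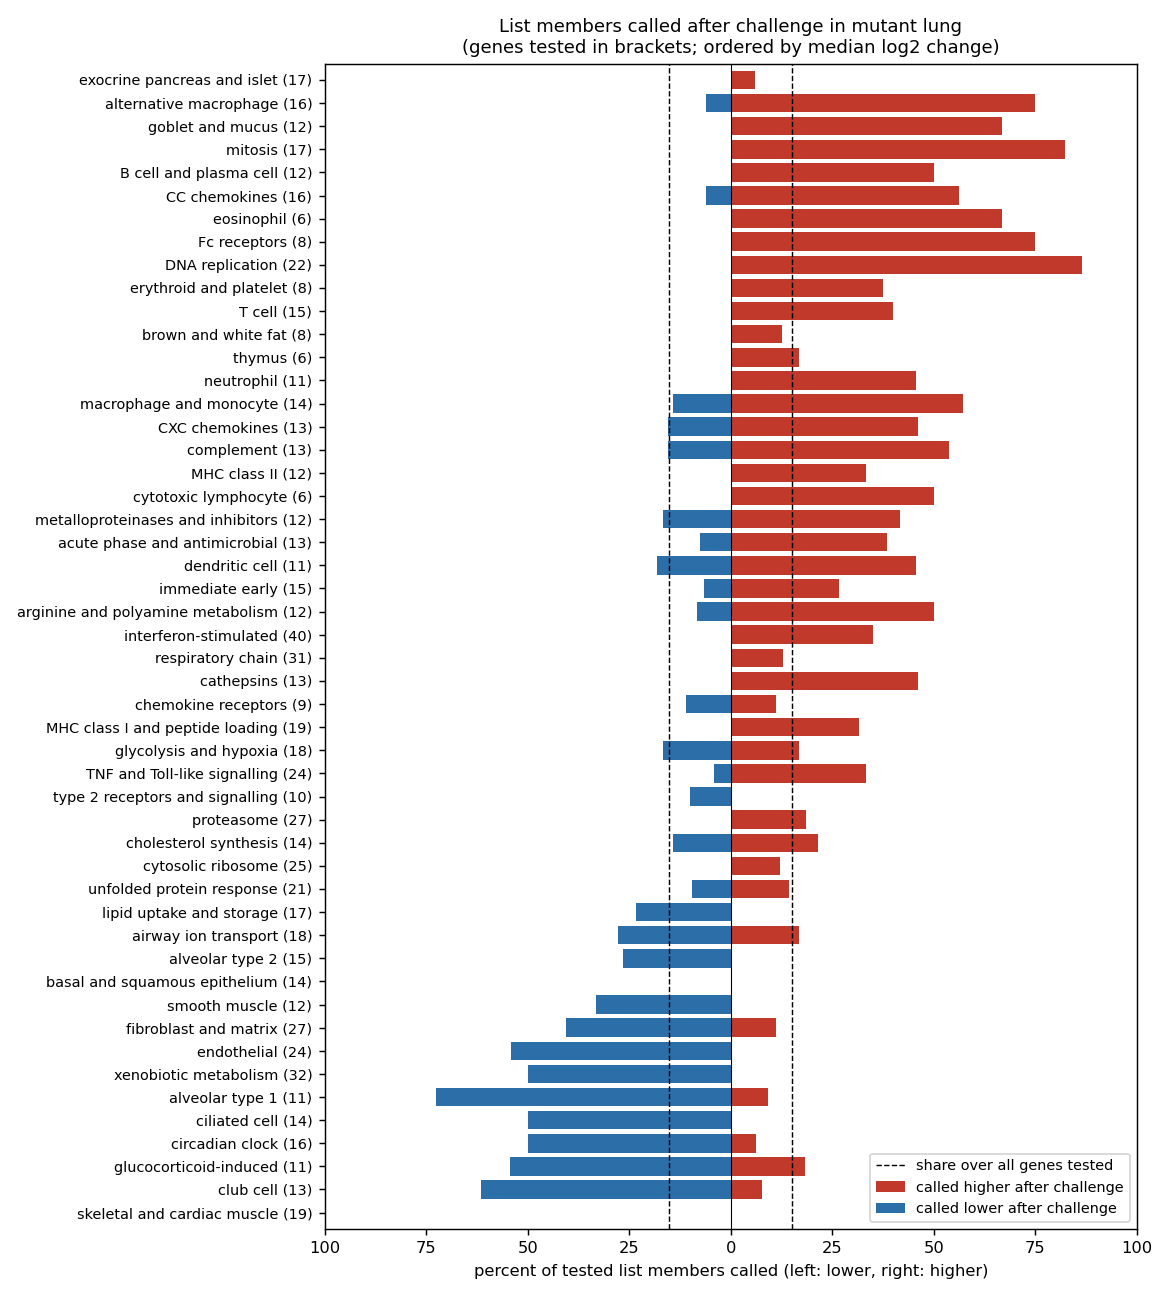
Percent of the tested members of each list with at least 6 tested genes that were called higher (right) or lower (left) after challenge in mutants, ordered by the median log2 change of the list. Dashed lines mark the shares over all genes tested, 15% higher and 15.2% lower, and DNA replication and mitosis show the highest shares of higher genes.

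The promoter of Retnla holds TTC and GAA with 4 bases between them, the spacing that STAT6 prefers, and is shown for that reason. It lies at chr16:48842359-48842658 on the plus strand and was taken from RefSeq (GRCm38.p6), with 250 bases before and 50 bases after the start of the gene. The match is in capitals.
Retnla: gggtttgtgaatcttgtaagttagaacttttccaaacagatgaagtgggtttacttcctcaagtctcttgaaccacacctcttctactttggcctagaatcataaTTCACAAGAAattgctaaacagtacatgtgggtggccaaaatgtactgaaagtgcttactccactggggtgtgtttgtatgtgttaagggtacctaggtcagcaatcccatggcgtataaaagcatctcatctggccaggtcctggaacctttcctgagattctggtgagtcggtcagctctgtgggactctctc
The same pattern is found in 2 of 11 promoters of the alternatively activated macrophage list (18.2%, exact 95% interval 2.28 to 51.8%) and in 5.34% of the 8226 tested genes with a promoter. A match describes letters only and is not evidence of binding.

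Other myeloid genes were higher in part. Of 14 macrophage and monocyte genes 8 were called higher and 2 lower, and with mean signal as a covariate 1 was higher and 1 lower. Itgax, the integrin CD11c, gave 7.87, 7.82, 7.85 and 8.03 in challenged mutants, against 6.77, 5.76 and 6.74 in unchallenged mutants and rose by 1.47 (adjusted p = 0.000438). Lgals3, galectin-3, rose by 0.75 (adjusted p = 0.00108). C1qb, a complement chain made by macrophages, rose by 1.37 (adjusted p = 0.00289), and Trem2, a lipid-sensing receptor, rose by 1.41 (adjusted p = 0.00366), or by 0.92 without unchallenged mutant 2. After median scaling the macrophage and monocyte counts were 4 higher and 3 lower. The members that fell were Mertk, a receptor for apoptotic cells, which fell by 1.01 (adjusted p = 0.00130), and Apoe, which fell by 1.09 (adjusted p = 0.0230). The call of Apoe (-0.89 to -0.86) ended when any 1 of challenged mutant 4 or unchallenged mutant 1 was left out. Fc receptor genes gave 6 higher and 0 lower of 8, a count that was 1 with mean signal as a covariate. Fcrls, a receptor-like molecule of macrophages, lay at 8.34, 7.81, 7.75 and 8.29 in challenged mutants, against 6.31, 6.74 and 6.42 in unchallenged mutants. It rose by 1.55 ± 0.20 (SE; adjusted p = 0.000190) and was called under every setting. Fcgr2b, the inhibitory Fc gamma receptor, rose by 1.45 (adjusted p = 0.000853), and Pigr, which carries immunoglobulin A across epithelium, rose by 1.62 (adjusted p = 0.0117). The 3 probes of Fcgr2b ranged from 0.38 to 1.45 and were not all called. The call of Pigr (1.15) ended without unchallenged mutant 2. Cathepsins gave 6 higher and 0 lower of 13, led by Ctsz, which rose by 1.35 (adjusted p = 0.000442), and Ctsk, which rose by 1.26 (adjusted p = 0.00605). Without unchallenged mutant 2 the cathepsin count was 2, and with mean signal as a covariate it was 0.

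Neutrophil genes gave 5 higher and 0 lower of 11 tested. Retnlg, a resistin-like molecule of neutrophils, had 10.08, 9.96, 9.37 and 8.95 in challenged mutants, against 7.42, 6.59 and 6.51 in unchallenged mutants. It rose by 2.75 ± 0.35 (SE; adjusted p = 0.000189). S100a8 and S100a9, which form calprotectin, were higher on every challenged array: S100a8 rose by 2.67 (adjusted p = 0.00117) and S100a9 rose by 2.59 (adjusted p = 0.000537). Il1b rose by 1.90 (adjusted p = 0.000834), and Lcn2, an iron-binding protein of neutrophils and epithelium, rose by 1.61 (adjusted p = 0.00315). Elane, Ngp, Ltf, Mmp9, Csf3r and Cxcr2 were not called, and with mean signal as a covariate the count was 2. Of 11 eosinophil genes on the array 6 passed the detection filter, and 4 of them were called higher, namely Rnase2a, Alox15, Prg2 and Rnase2b. Rnase2a and Alox15 are also members of the alternatively activated macrophage list. Alox15 and Rnase2b were undetected in unchallenged mutants, and the filter can admit genes detected only after challenge. Prg2, the major basic protein of eosinophil granules, had 8.56, 7.47, 7.42 and 8.20 in challenged mutants, against 6.79, 5.55 and 6.42 in unchallenged mutants and rose by 1.66 (adjusted p = 0.00728). Rnase2b was detected on 2 challenged and 0 unchallenged arrays, and it was at least 1.49-fold higher (adjusted p = 0.0319). Its call ended when any 1 unchallenged mutant was left out, and that of Prg2 without unchallenged mutant 2 (1.30). Without unchallenged mutant 2 the eosinophil count was 2, as it was with mean signal as a covariate. Among 3 mast cell and basophil genes tested, Hdc, which makes histamine, rose by 0.77 (adjusted p = 0.00149), and Cpa3, a mast cell carboxypeptidase, rose by 1.17 (adjusted p = 0.00159), a count of 2 that was 0 with mean signal as a covariate.

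Extracellular proteases, complement and acute phase genes gave mixed lists. Timp1, an inhibitor of metalloproteinases, lay at 11.80, 11.84, 11.31 and 11.30 in challenged mutants, against 8.79, 8.05 and 8.50 in unchallenged mutants. It rose by 3.11 ± 0.35 (SE; adjusted p = 9.26e-05) and kept its call under every setting. Of 12 metalloproteinase and inhibitor genes 5 were higher and 2 lower. Mmp13, a collagenase, rose by 1.69 (adjusted p = 0.00411), Mmp2, a gelatinase, fell by 0.88 (adjusted p = 0.00949), and Timp3 fell by 0.53 (adjusted p = 0.0143). The other probe of Mmp13 stood at 0.21 and was not called. The call of Timp3 (-0.40) ended without unchallenged mutant 2. The list gave 1 higher and 0 lower with mean signal as a covariate. Complement genes gave 7 higher and 2 lower of 13, a split of 4 and 0 without unchallenged mutant 2, 8 and 0 without unchallenged mutant 1, 0 and 0 with mean signal as a covariate and 3 and 4 after median scaling. Without unchallenged mutant 3 or without challenged mutant 4, 1 was lower. Cfb, factor B of the alternative pathway, rose by 1.42 (adjusted p = 0.00250), and Itgb2, the beta chain of complement receptors, rose by 1.18 (adjusted p = 0.00104). Saa3, an acute phase serum amyloid, had 12.33, 12.11, 11.19 and 10.73 in challenged mutants, against 8.72, 6.01 and 7.06 in unchallenged mutants. It rose by 4.33 ± 0.65 (SE; adjusted p = 0.000532). Orm1, an acute phase glycoprotein, rose by 1.34 (adjusted p = 0.0274), Il1rn, the antagonist of interleukin-1, rose by 0.86 (adjusted p = 0.0265), and Reg3g, an antimicrobial lectin, rose by 1.23 (adjusted p = 0.0460). The call of Orm1 (1.06 to 1.31) ended when any 1 of challenged mutants 1 and 4 or unchallenged mutants 1 and 2 was left out. The call of Il1rn (0.62 to 0.89) ended when any 1 of challenged mutant 1 or unchallenged mutants 2 and 3 was left out. The call of Reg3g (0.87 to 1.29) ended when any 1 of challenged mutants 2, 3 and 4 or unchallenged mutants 1 and 2 was left out. The acute phase list as a whole gave 5 higher and 1 lower of 13, 2 and 0 with mean signal as a covariate, 3 and 3 after median scaling and 2 and 2 without unchallenged mutant 2. Without challenged mutant 2 the count of lower genes was 2. Without challenged mutant 1, or without challenged mutant 4, 3 were higher.

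In arginine and polyamine metabolism 6 of 12 genes were higher and 1 lower. Beside Arg1, the arginine transporter Slc7a2 rose by 1.00 (adjusted p = 0.00154), ornithine decarboxylase Odc1 rose by 0.68 (adjusted p = 0.00376) and the mitochondrial arginase Arg2 rose by 0.65 (adjusted p = 0.0385). The call of Arg2 (0.56 to 0.68) ended when any 1 of challenged mutants 1, 2 and 3 or unchallenged mutants 1 and 2 was left out. Oat, which turns ornithine towards proline, stood at 11.92, 11.90, 11.87 and 11.20 in challenged mutants, against 12.61, 12.53 and 12.36 in unchallenged mutants and fell by 0.78 (adjusted p = 0.00335). With mean signal as a covariate, as after median scaling, the count of higher genes was 1, and without unchallenged mutant 1 it was 3.

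Cell cycle genes had the highest called shares of any list. Of 22 DNA replication genes 19 were higher and 0 lower (86.4%), with a median log2 change of 1.12, and the count was 17 with mean signal as a covariate, 16 without unchallenged mutant 2 and 12 after median scaling. Lig1, the DNA ligase of replication, gave 9.80, 9.73, 9.53 and 9.79 in challenged mutants, against 8.28, 7.91 and 7.98 in unchallenged mutants. The challenged arrays spanned less than 0.3 log2 units, and Lig1 rose by 1.66 ± 0.13 (SE; adjusted p = 1.40e-05). That was the brightest of its 4 probes, which ranged from -0.11 to 1.66 and were not all called. Mcm5, a subunit of the replicative helicase, gave 10.45, 9.96, 10.03 and 10.49 in challenged mutants, against 8.94, 8.09 and 8.46 in unchallenged mutants and rose by 1.74 (adjusted p = 0.000125). Cdt1, which loads that helicase, rose by 1.49 (adjusted p = 7.23e-05), and Mcm10 rose by 1.78 (adjusted p = 9.13e-05). Tk1, thymidine kinase, rose by 2.03 (adjusted p = 8.44e-05). Uhrf1, which maintains DNA methylation at replication forks, had 11.20, 10.51, 10.58 and 11.28 in challenged mutants, against 9.15, 8.03 and 8.86 in unchallenged mutants. It rose by 2.22 ± 0.27 (SE; adjusted p = 0.000140).

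Of 17 mitosis genes 14 were higher and 0 lower (82.4%), with a median log2 change of 1.47. The count was 13 with mean signal as a covariate, 10 without unchallenged mutant 2 and 9 after median scaling. Aurka, a spindle kinase, gave 8.46, 8.00, 7.90 and 7.99 in challenged mutants, against 6.64, 6.02 and 6.51 in unchallenged mutants. The groups did not overlap, and it rose by 1.70 ± 0.24 (SE; adjusted p = 0.000355). Birc5, survivin, rose by 1.81 (adjusted p = 0.000689). Prc1, which bundles microtubules of the central spindle, rose by 1.63 (adjusted p = 0.000883). Kif22, a chromosome-bound kinesin, rose by 1.79 (adjusted p = 0.00116). Cdk1, the mitotic kinase, rose by 1.59 (adjusted p = 0.00166), and Cdc20, an activator of the anaphase-promoting complex, rose by 1.75 (adjusted p = 0.00194). The other probe of Cdk1 stood at 0.18 and was not called. Plk1, a polo-like kinase, had 8.50, 7.37, 7.64 and 6.83 in challenged mutants, against 6.75, 6.29 and 6.21 in unchallenged mutants and rose by 1.17 (adjusted p = 0.0285). The call of Plk1 (0.86 to 1.15) ended when any 1 of challenged mutants 1 and 3 or unchallenged mutants 2 and 3 was left out. Challenged mutant 1 was the highest of the arrays for each of these 7 genes. Averaged over the list and relative to unchallenged mutants, it stood at 2.07, and the other challenged mutants at 1.09 to 1.14. The thymus markers described below were also highest on this array, and their part in the mitotic level was not tested. Without challenged mutants 1 and 2 the mitosis count was 12.

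Promoters of the mitosis list are shown because they share a short element. Genes of mitosis are known to carry the cell cycle homology region, whose core is TTTGAA, near their start, where repressor and activator complexes bind in turn through the cell cycle. The windows below are from RefSeq (GRCm38.p6), read 5′ to 3′ along the gene, with the match in capitals (its complement, TTCAAA, for Kif22). They lie at chr2:172370521-172370568 on the minus strand (Aurka), chr4:118437326-118437391 on the minus strand (Cdc20), chr10:69352892-69352957 on the minus strand (Cdk1), chr7:122159435-122159484 on the plus strand (Plk1), chr7:80294416-80294481 on the plus strand (Prc1) and chr7:127042402-127042467 on the minus strand (Kif22).
Aurka: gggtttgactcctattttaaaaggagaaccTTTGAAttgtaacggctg
Cdc20: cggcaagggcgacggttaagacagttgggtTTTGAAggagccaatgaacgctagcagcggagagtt
Cdk1: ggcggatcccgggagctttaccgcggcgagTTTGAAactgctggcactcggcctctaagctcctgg
Plk1: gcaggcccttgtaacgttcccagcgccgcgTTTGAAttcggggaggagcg
Prc1: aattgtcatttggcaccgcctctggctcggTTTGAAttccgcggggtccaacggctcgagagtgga
Kif22: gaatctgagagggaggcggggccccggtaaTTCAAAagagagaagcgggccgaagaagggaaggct
On either strand between 250 bases before and 50 bases after the start, TTTGAA was found in 13 of 15 promoters of the mitosis list (86.7%, exact 95% interval 59.5 to 98.3%). It was found in 3 of 20 promoters of the replication list (15%) and in 12.5% of the 8226 tested genes with a promoter. Among genes called higher it was in 14.9% of 1214 promoters, and among genes called lower in 8.71% of 1217. Of the other lists searched it was in 5 of 11 promoters of alternatively activated macrophages (45.5%), 4 of 10 of CC chemokines (40%), 1 of 6 of mucus (16.7%), 0 of 14 of the clock and 0 of 17 of TNF and Toll-like signalling. The intervals cover counting only, and the mitosis genes were listed for their function.

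Some lymphocyte genes were called higher, with levels that differed between challenged arrays. B and plasma cell genes gave 6 higher and 0 lower of 12 tested, but 1 without unchallenged mutant 2 and 0 with mean signal as a covariate, where the median of the list relative to all genes was -0.19, against 1.42 without the covariate. Fcer2a, the low-affinity receptor for immunoglobulin E, lay at 7.74, 8.55, 8.29 and 10.13 in challenged mutants, against 6.66, 5.87 and 6.73 in unchallenged mutants. Challenged mutant 4 was the highest, and Fcer2a rose by 2.26 ± 0.41 (SE; adjusted p = 0.00161). Cd79a, a chain of the B cell receptor complex, had 8.46, 8.51, 9.40 and 10.85 in challenged mutants, against 8.23, 6.40 and 7.78 in unchallenged mutants and rose by 1.84 (adjusted p = 0.0189). Its partner Cd79b rose by 1.51 (adjusted p = 0.0120), and Blk, a B cell kinase, rose by 1.72 (adjusted p = 0.0115). The calls of Cd79a (1.30), Cd79b (1.14) and Blk (1.29) ended without unchallenged mutant 2. With mean signal as a covariate the direction turned for Cd79a (-0.14), Cd22 (-0.62), Jchain (-0.24) and Cxcr5 (-0.29). Challenged mutant 4, which had the highest mean level of the B cell list (1.76), was also the dimmest array.

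T cell genes gave 6 higher and 0 lower of 15, with 3 without unchallenged mutant 2 and 0 with mean signal as a covariate. Foxp3, which defines regulatory T cells, had 6.68, 7.03, 7.45 and 7.91 in challenged mutants, against 6.65, 5.43 and 5.95 in unchallenged mutants and rose by 1.26 (adjusted p = 0.00593). Ctla4, an inhibitory receptor of such cells, rose by 1.28 (adjusted p = 0.0101), and Tnfrsf4, the co-stimulatory receptor OX40, rose by 1.18 (adjusted p = 0.00345). The call of Ctla4 (0.90) ended without unchallenged mutant 2. Cd3e, a chain of the T cell receptor complex, had 10.43, 8.17, 8.32 and 9.24 in challenged mutants, against 8.33, 6.89 and 8.18 in unchallenged mutants. Challenged mutants 1 and 4 were high while the other challenged mutants lay next to the unchallenged ones, and Cd3e rose by 1.24 (adjusted p = 0.0482). The call of Cd3e (0.78 to 1.43) ended when any 1 of challenged mutants 1 and 4 or unchallenged mutants 2 and 3 was left out. Leaving out both challenged mutants 1 and 4 brought its change to 0.45. Cytotoxic lymphocyte genes gave 3 of 6, 0 with mean signal as a covariate, and 1 without unchallenged mutant 2 or without challenged mutant 4. Prf1, perforin, lay at 11.33, 11.34, 11.70 and 12.03 in challenged mutants, against 10.78, 10.76 and 10.72 in unchallenged mutants. It rose by 0.85 ± 0.17 (SE; adjusted p = 0.00317). Dendritic cell genes gave 5 higher and 2 lower of 11, and 2 and 2 without unchallenged mutant 2, and 3 were higher without unchallenged mutant 3 or without challenged mutant 4. With mean signal as a covariate the split was 0 and 0, after median scaling it was 2 and 3, and 1 was lower without unchallenged mutant 1 or without unchallenged mutant 3. Batf3, a transcription factor of conventional dendritic cells, rose by 1.75 (adjusted p = 0.000671), and Cd209d, a lectin of the DC-SIGN family, rose by 1.45 (adjusted p = 0.000689).

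Interferon-stimulated genes, the family to which Ifit2 belongs, gave 14 higher and 0 lower of 40 tested, with a median log2 change of 0.36. That is 35% higher, against 15% over all genes tested. After median scaling 6 were higher and 5 lower, and with mean signal as a covariate 2 were higher. Zbp1, a nucleic acid sensor, lay at 6.52, 6.95, 6.90 and 6.62 in challenged mutants, against 5.61, 5.66 and 6.04 in unchallenged mutants. It rose by 0.98 ± 0.16 (SE; adjusted p = 0.000824). Irf7, the transcription factor that amplifies interferon production, rose by 1.10 (adjusted p = 0.00163). Ifit3, an interferon-induced partner of Ifit2, had 11.28, 11.59, 11.43 and 11.36 in challenged mutants, against 10.90, 10.64 and 10.58 in unchallenged mutants with its brightest probe and rose by 0.71 (adjusted p = 0.00183). The lowest of its 3 probes stood at -0.38 and was not called. Oas1g, an oligoadenylate synthetase, rose by 1.01 (adjusted p = 0.00152), and Ifitm1, a membrane restriction factor, rose by 0.93 (adjusted p = 0.00145). Isg15, a ubiquitin-like modifier, was spread widely, at 7.76, 8.17, 7.00 and 4.86 in challenged mutants, against 7.42, 7.09 and 5.89 in unchallenged mutants, and differed by 0.14 ± 0.68 (SE; adjusted p = 0.888). Stat2, which carries the signal from the interferon receptor, differed by -0.06 ± 0.19 (SE; adjusted p = 0.828).

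Calls among antigen presentation genes depended on single arrays. MHC class I and peptide loading gave 6 higher and 0 lower of 19, and class II 4 higher and 0 lower of 12. The shares of higher genes were 31.6% and 33.3%, against 15% over all genes tested. Both counts of higher genes were 0 without unchallenged mutant 2 and 0 after median scaling, when 3 class I genes were lower. With mean signal as a covariate 1 class II gene and 0 class I genes were higher, and 1 class I gene was lower. The class II count was also 7 without unchallenged mutant 1, 2 without unchallenged mutant 3 and 1 without challenged mutant 3. Tap1, a peptide transporter, had 8.32, 8.40, 8.35 and 9.21 in challenged mutants, against 7.97, 6.98 and 7.56 in unchallenged mutants, and rose by 1.07 (adjusted p = 0.00985). H2-DMb1, which helps load class II molecules, had 11.00, 11.10, 11.40 and 11.68 in challenged mutants, against 10.77, 9.78 and 10.53 in unchallenged mutants, and rose by 0.94 (adjusted p = 0.0101). In both genes unchallenged mutant 2 was the lowest. The calls of Tap1 (0.81) and H2-DMb1 (0.65) ended without unchallenged mutant 2. Cd74, the invariant chain, differed by 0.15 ± 0.26 (SE; adjusted p = 0.688), and the brightest probe of B2m, the light chain of class I molecules, differed by -0.29 ± 0.17 (SE; adjusted p = 0.188).

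Among TNF and Toll-like signalling genes 8 were higher and 1 lower of 24 (33.3% and 4.17%, against 15% and 15.2% over all genes tested). Nfkb2, a subunit of the non-canonical NF-kappa-B pathway, stood at 7.82, 8.08, 8.17 and 8.61 in challenged mutants, against 6.97, 6.34 and 6.51 in unchallenged mutants. The groups did not overlap, and it rose by 1.56 ± 0.18 (SE; adjusted p = 0.000125) and was called under every setting. Its partner Relb rose by 0.83 (adjusted p = 0.00454), and Tnfaip3, a feedback inhibitor, rose by 0.75 (adjusted p = 0.00813). Tlr1 rose by 1.24 (adjusted p = 0.0122), a direction that turned with mean signal as a covariate (-0.17). Icam1, an adhesion molecule of endothelium and epithelium, fell by 0.76 (adjusted p = 0.0456) and turned likewise (0.29). The calls of Tnfaip3 (0.53) and Tlr1 (0.97) ended without unchallenged mutant 2. The call of Icam1 (-0.77 to -0.51) ended when any 1 of challenged mutants 1, 3 and 4 or unchallenged mutants 1 and 2 was left out. Without unchallenged mutant 2, as with mean signal as a covariate, the count of higher genes was 3 and of lower genes 0, and after median scaling 3 were higher and 6 lower. Without challenged mutant 2 the count of lower genes was 3. Neither of 2 NF-kappa-B motifs searched by name was found in the 17 promoters of the list (0 each). They were found in 0.182% and 0.134% of the 8226 tested genes with a promoter. At shares this low a count of 0 in 17 promoters says nothing about the list. Among genes called higher each motif was in 5 of 1214 promoters (0.412%). Among genes called lower they were in 2 and 1 of 1217 (0.164% and 0.0822%). Immediate early genes gave 4 higher and 1 lower of 15 (26.7% and 6.67%, against 15% and 15.2% over all genes tested). The counts were 2 and 0 with mean signal as a covariate, and 3 and 3 after median scaling. Without unchallenged mutant 1, or without challenged mutant 2, 2 were lower. Egr1 had 11.85, 12.22, 12.08 and 12.25 in challenged mutants, against 10.70, 10.56 and 10.92 in unchallenged mutants, and rose by 1.37 (adjusted p = 0.000151). Junb rose by 1.46 (adjusted p = 0.000240) and Atf3 rose by 1.03 (adjusted p = 0.000113), while Dusp1, a phosphatase of MAP kinases, fell by 1.31 (adjusted p = 0.00345). Fos, Fosb and Jun were not called.

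**Figure D3:**
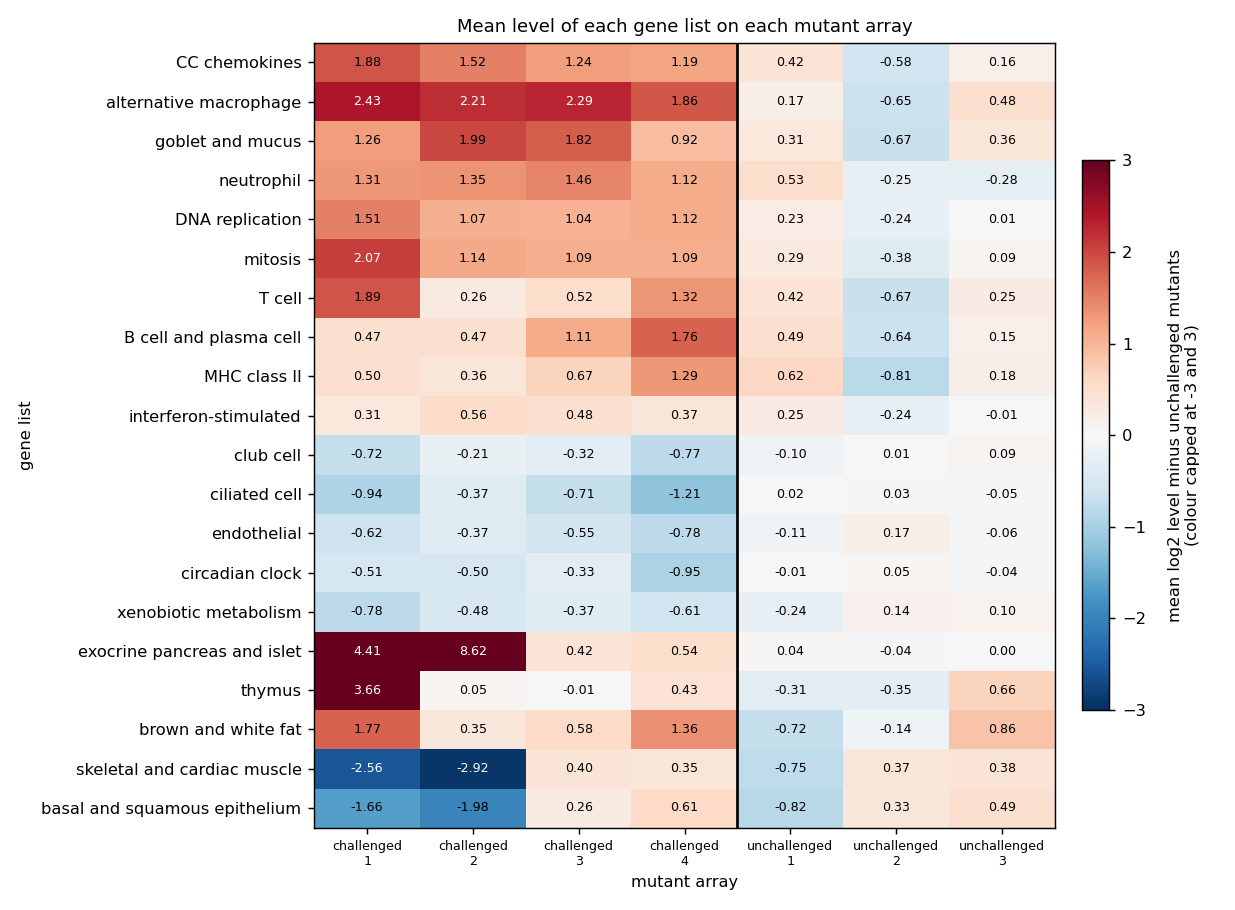
Mean log2 level of 20 gene lists on each mutant array, relative to the mean of the unchallenged mutants (red higher, blue lower, colour capped at -3 and 3). Challenged mutants 1 and 2 carry high levels of pancreas genes (4.41 and 8.62) and low levels of muscle genes (-2.56 and -2.92), challenged mutant 1 carries the highest thymus level (3.66), and unchallenged mutant 2 is the lowest unchallenged array on most immune lists.

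Endothelial genes gave 0 higher and 13 lower of 24 tested, with a median log2 change of -0.55. Tmem100, an endothelial target of bone morphogenetic protein signalling, stood at 11.52, 11.76, 11.64 and 11.55 in challenged mutants, against 12.84, 13.09 and 12.77 in unchallenged mutants. Every challenged array was more than 1 log2 unit below every unchallenged array, and it fell by 1.28 ± 0.15 (SE; adjusted p = 0.000140). Tek, the receptor of angiopoietins, had 9.61, 10.28, 9.70 and 8.91 in challenged mutants, against 11.08, 11.52 and 11.22 in unchallenged mutants and fell by 1.65 (adjusted p = 0.000724). Ramp2, a co-receptor for adrenomedullin, fell by 0.98 (adjusted p = 0.00358), and Eng, endoglin, fell by 0.67 (adjusted p = 0.00206). The brighter probe of Pecam1, an adhesion molecule of endothelial junctions, fell by 0.70 (adjusted p = 0.00411). Vwf, von Willebrand factor, differed by 0.00 ± 0.19 (SE; adjusted p = 0.995), and Cdh5, VE-cadherin, differed by -0.28 ± 0.26 (SE; adjusted p = 0.430). The count was 7 without unchallenged mutant 2 and 3 with mean signal as a covariate.

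Mesenchymal genes fell in part, while 3 collagen genes were called higher by their brightest probes. Of 27 fibroblast and matrix genes 11 were lower and 3 higher, a split of 2 lower and 0 higher with mean signal as a covariate. Inmt, a methyltransferase of lung fibroblasts, lay at 12.33, 12.27, 12.82 and 12.19 in challenged mutants, against 13.61, 14.24 and 13.69 in unchallenged mutants. It fell by 1.45 ± 0.21 (SE; adjusted p = 0.000458) and was called under every setting. Pdgfra, the platelet-derived growth factor receptor of alveolar fibroblasts, fell by 1.18 (adjusted p = 0.00155). Tcf21, a transcription factor of lung mesenchyme, had 8.15, 8.17, 8.26 and 6.34 in challenged mutants, against 9.57, 10.17 and 9.51 in unchallenged mutants, with challenged mutant 4 far below the rest, and fell by 2.02 (adjusted p = 0.00208). Eln, elastin, fell by 0.69 (adjusted p = 0.0220), and Lama2 was at least 1.06-fold lower (adjusted p = 0.00556). The call of Eln (-0.64 to -0.48) ended when any 1 of unchallenged mutants 1 and 3 was left out. The calls of Col1a2 (0.42) and Col3a1 (0.50) ended without unchallenged mutant 2. Col6a2, a chain of the microfibrillar collagen VI, had 10.31, 10.14, 10.39 and 11.21 in challenged mutants, against 9.29, 9.22 and 9.37 in unchallenged mutants and rose by 1.22 (adjusted p = 0.00162). The other higher members were the fibrillar collagen genes Col3a1, whose brightest probe rose by 0.62 (adjusted p = 0.0107), and Col1a2, which rose by 0.48 (adjusted p = 0.0162). The other probe of Col3a1 stood at -0.26 and was not called. After median scaling Col1a2 turned (-0.04), and without unchallenged mutant 2 the count of higher genes was 1. Smooth muscle genes gave 0 higher and 4 lower of 12 (33.3% lower, against 15.2% over all genes tested). The count of lower genes was 0 with mean signal as a covariate and 9 after median scaling. It was 1 without unchallenged mutant 2, without unchallenged mutant 3, without challenged mutant 1 or without challenged mutant 4. Cald1, caldesmon, was detected on 0 challenged and 3 unchallenged arrays and was at least 1.67-fold lower (adjusted p = 0.000178). The probes of Acta2 gave opposite calls.

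Circadian clock genes gave 8 lower and 1 higher of 16. Per1 and Per2, the period genes of the repressive limb, were both lower on every challenged array. Per1 gave 8.84, 7.99, 9.08 and 7.90 in challenged mutants, against 9.85, 10.30 and 10.49 in unchallenged mutants with its brightest probe and fell by 1.76 (adjusted p = 0.00679), while its other probe stood at -0.52 and was not called. Per2 gave 9.15, 8.64, 9.09 and 7.79 in challenged mutants, against 10.01, 10.20 and 9.99 in unchallenged mutants and fell by 1.40 (adjusted p = 0.00139). Rora, a nuclear receptor that activates Arntl, fell by 1.61 (adjusted p = 0.000803), Per3 fell by 1.37 (adjusted p = 0.00126) and Cry2 fell by 1.44 (adjusted p = 0.00500). The clock outputs Nr1d1 and Dbp were lower too: Nr1d1 fell by 0.84 (adjusted p = 0.0126) and Dbp fell by 0.77 (adjusted p = 0.0199). The call of Nr1d1 (-0.70) ended without unchallenged mutant 2. The call of Dbp (-0.75 to -0.68) ended when any 1 of unchallenged mutants 1 and 2 was left out. Bhlhe40, a repressor of clock genes, rose by 0.96 (adjusted p = 0.00229), and Arntl, the activator, differed by 0.34 ± 0.17 (SE; adjusted p = 0.129). The counts were 0 higher and 1 lower with mean signal as a covariate, and 5 were lower without unchallenged mutant 2. Without challenged mutant 4, 2 were higher. No source used here gives the hour at which lungs were taken.

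The promoter of Per1 is shown because it holds an E-box (CACGTG), the element bound by the clock activators. It lies at chr11:69098699-69098998 on the plus strand in RefSeq (GRCm38.p6), with the E-box in capitals.
Per1: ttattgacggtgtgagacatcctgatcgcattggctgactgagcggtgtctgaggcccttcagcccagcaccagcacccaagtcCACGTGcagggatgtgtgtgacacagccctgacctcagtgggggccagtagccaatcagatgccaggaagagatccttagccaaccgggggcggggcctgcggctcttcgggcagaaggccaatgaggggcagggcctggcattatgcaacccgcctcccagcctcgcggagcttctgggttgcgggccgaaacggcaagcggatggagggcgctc
CACGTG was found in 3 of 14 promoters of the clock list (21.4%, exact 95% interval 4.66 to 50.8%), those of Per1, Ciart and Tef, and in 9.79% of the 8226 tested genes with a promoter.

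Per1 is also induced by glucocorticoids, and 6 of 11 glucocorticoid-induced genes were lower and 2 higher. Klf9 had 11.53, 11.14, 11.51 and 11.15 in challenged mutants, against 12.57, 12.90 and 13.05 in unchallenged mutants. It fell by 1.51 ± 0.21 (SE; adjusted p = 0.000275) and was called under every setting. Tsc22d3, the glucocorticoid-induced leucine zipper, had 11.16, 10.04, 10.62 and 9.68 in challenged mutants, against 11.91, 12.14 and 12.28 in unchallenged mutants with its brightest probe and fell by 1.74 (adjusted p = 0.00139). The 2 higher members were Lcn2 and Mt1, a metallothionein, which rose by 0.51 (adjusted p = 0.0375). The call of Mt1 (0.36 to 0.51) ended when any 1 of challenged mutants 2 and 3 or unchallenged mutants 1 and 2 was left out. Fkbp5, Cdkn1a and Pdk4 were not called. The counts were 6 lower without unchallenged mutant 2, and 0 higher and 1 lower with mean signal as a covariate.

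Enzymes that metabolise foreign compounds gave 0 higher and 16 lower of 32 tested. Cbr2, a carbonyl reductase abundant in mouse lung, lay at 12.94, 13.34, 13.39 and 12.72 in challenged mutants, against 14.63, 14.72 and 14.27 in unchallenged mutants. It fell by 1.44 ± 0.19 (SE; adjusted p = 0.000259) and was called under every setting. Gstm1, a glutathione transferase, had 10.15, 10.48, 10.70 and 10.15 in challenged mutants, against 11.27, 11.87 and 11.42 in unchallenged mutants and fell by 1.15 (adjusted p = 0.000425), and Cyp4b1 fell by 0.90 (adjusted p = 0.00318). The count was 9 without unchallenged mutant 2 and 5 with mean signal as a covariate. In lipid handling 4 of 17 genes were lower (23.5%, against 15.2% over all genes tested) and 0 higher. With mean signal as a covariate 1 was lower, and 2 were higher without challenged mutant 2. Those lower included Pon1 and Angptl4, an inhibitor of lipoprotein lipase, while lipoprotein lipase itself, Lpl, differed by 0.00 ± 0.25 (SE; adjusted p = 0.992). Cholesterol synthesis gave 3 higher and 2 lower of 14 (21.4% and 14.3%, against 15% and 15.2% over all genes tested). The counts were 0 and 0 with mean signal as a covariate, and 1 and 5 after median scaling. The count of lower genes was 0 without unchallenged mutant 1, without unchallenged mutant 2 or without challenged mutant 3, and 1 without unchallenged mutant 3 or without challenged mutant 4. Idi1, an isomerase of the pathway, had 8.55, 8.40, 8.75 and 9.19 in challenged mutants, against 7.31, 7.22 and 7.49 in unchallenged mutants and rose by 1.38 (adjusted p = 0.000250), whereas Sqle, squalene epoxidase, fell by 0.66 (adjusted p = 0.0481), a direction that turned with mean signal as a covariate (0.22). The call of Sqle (-0.69 to -0.38) ended when any 1 of challenged mutants 3 and 4 or unchallenged mutants 1, 2 and 3 was left out.

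Housekeeping lists had shares of higher genes near the background of 15%. Shares of lower genes were below the background of 15.2% for the unfolded protein response (9.52%). They were 0% for the proteasome, the cytosolic ribosome and the respiratory chain. The proteasome gave 5 higher and 0 lower of 27, but 1 and 5 after median scaling. The unfolded protein response gave 3 higher and 2 lower of 21, but 1 and 7 after median scaling. Cytosolic ribosomal proteins gave 3 higher and 0 lower of 25, and the respiratory chain 4 higher and 0 lower of 31. With mean signal as a covariate 0 genes of any of these 4 lists were higher. Without unchallenged mutant 2 the proteasome count was 2, and leaving out unchallenged mutant 1 or 3 gave 3. That of the unfolded protein response was 0 without unchallenged mutant 2, 1 without unchallenged mutant 1 and 5 without challenged mutant 1. That of the ribosome was 5 without challenged mutant 2, and that of the respiratory chain was 2 without unchallenged mutant 1, without unchallenged mutant 2 or without challenged mutant 1. Psmd4, a ubiquitin receptor of the proteasome, rose by 0.95 (adjusted p = 0.000537). Atf4, a transcription factor of the stress response, had 8.99, 9.02, 8.99 and 9.01 in challenged mutants, against 9.81, 9.99 and 9.64 in unchallenged mutants and fell by 0.81 (adjusted p = 0.000260), whereas the chaperone Hspa5 rose by 0.62 (adjusted p = 0.0191). The call of Hspa5 (0.53 to 0.57) ended when any 1 of unchallenged mutants 1 and 2 was left out. In glycolysis and hypoxia 3 were higher and 3 lower of 18 (16.7% each, near the 15% and 15.2% over all genes tested). The counts were 0 and 1 with mean signal as a covariate. The count of higher genes was 1 without unchallenged mutant 1 or without unchallenged mutant 2. Hk3, a hexokinase of leukocytes, rose by 1.45 (adjusted p = 0.000196), Ldha, lactate dehydrogenase, rose by 0.46 (adjusted p = 0.0296) and Hif1a fell by 0.64 (adjusted p = 0.0263). The call of Ldha (0.35 to 0.45) ended when any 1 of challenged mutant 1 or unchallenged mutants 1 and 2 was left out. The call of Hif1a (-0.58 to -0.47) ended when any 1 of challenged mutants 2 and 4 or unchallenged mutants 1 and 3 was left out.

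Transcripts of tissues other than lung varied between single arrays. Pnliprp1, a pancreatic lipase-related protein, had the second-largest called rise, with 13.05, 14.99, 7.81 and 7.47 in challenged mutants, against 6.01, 5.62 and 5.82 in unchallenged mutants. It rose by 5.02 ± 1.82 (SE; adjusted p = 0.0495), and without challenged mutants 1 and 2 its change was 1.83 and not called. The call of Pnliprp1 (3.63 to 5.11) ended when any 1 of challenged mutants 1 and 2 or unchallenged mutants 1, 2 and 3 was left out. Clps, pancreatic colipase, had 12.98, 15.48, 6.27 and 5.44 in challenged mutants, against 5.37, 4.86 and 4.90 in unchallenged mutants and was detected on 3 challenged and 0 unchallenged arrays. Of 17 exocrine pancreas and islet genes 1 was called higher, Pnliprp1. The count was 0 without unchallenged mutant 1, 2 or 3, without challenged mutant 1 or 2, and with mean signal as a covariate, and 3 without challenged mutant 3 or without challenged mutant 4. The arrays detected 16, 17, 6 and 5 of them in challenged mutants, against 3, 4 and 4 in unchallenged mutants. Their summed linear level was 1017 to 328345 in challenged mutants and 636 to 682 in unchallenged mutants.

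Thymus genes showed 1 high array. Rag1, a recombinase of developing lymphocytes, had 10.65, 5.38, 5.17 and 5.19 in challenged mutants, against 4.92, 4.87 and 6.49 in unchallenged mutants, and Arpp21 had 10.67, 5.84, 5.68 and 6.73 in challenged mutants, against 5.46, 5.66 and 6.81 in unchallenged mutants. Both were above 10 on challenged mutant 1 alone. Cd8b1, a T cell co-receptor chain shared by the T cell and thymus lists, had 13.06, 9.07, 9.09 and 10.55 in challenged mutants, against 8.21, 7.86 and 9.22 in unchallenged mutants and rose by 2.01 (adjusted p = 0.0438). The call of Cd8b1 (1.73 to 1.98) ended when any 1 of challenged mutant 4 or unchallenged mutants 1 and 2 was left out. Its change was 0.65 without both challenged mutants 1 and 4, and 1.14 without challenged mutant 1. Skeletal and cardiac muscle genes gave 0 calls of 19, and basal and squamous epithelial genes 0 of 14, or 1 without challenged mutant 3 or without challenged mutant 4. Acta1, skeletal actin, had 5.31, 4.86, 13.77 and 13.84 in challenged mutants, against 12.52, 14.23 and 13.66 in unchallenged mutants. Krt13, a keratin of squamous epithelium, had 5.03, 4.78, 11.03 and 11.15 in challenged mutants, against 9.27, 11.48 and 11.50 in unchallenged mutants. In both genes challenged mutants 1 and 2 were near the bottom of the scale and all other mutant arrays above 9. Erythroid and platelet genes gave 3 higher and 0 lower of 8, Pf4 among them. Of 8 fat genes 1 was called higher (12.5%, against 15% over all genes tested), namely Lep, leptin, which rose by 1.71 (adjusted p = 0.0112). The call of Lep (1.61) ended without unchallenged mutant 2. Ucp1, a marker of brown fat, had 10.62, 8.63, 8.88 and 8.85 in challenged mutants, against 5.17, 8.47 and 8.95 in unchallenged mutants, with challenged mutant 1 the highest and unchallenged mutant 1 the lowest. The part of these tissues in the changes of lung genes was not tested, and the counts without challenged mutants 1 and 2 were 9 for CC chemokines, 11 for alternatively activated macrophages, 7 for mucus, 17 for DNA replication and 12 for endothelium.

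**Figure D4:**
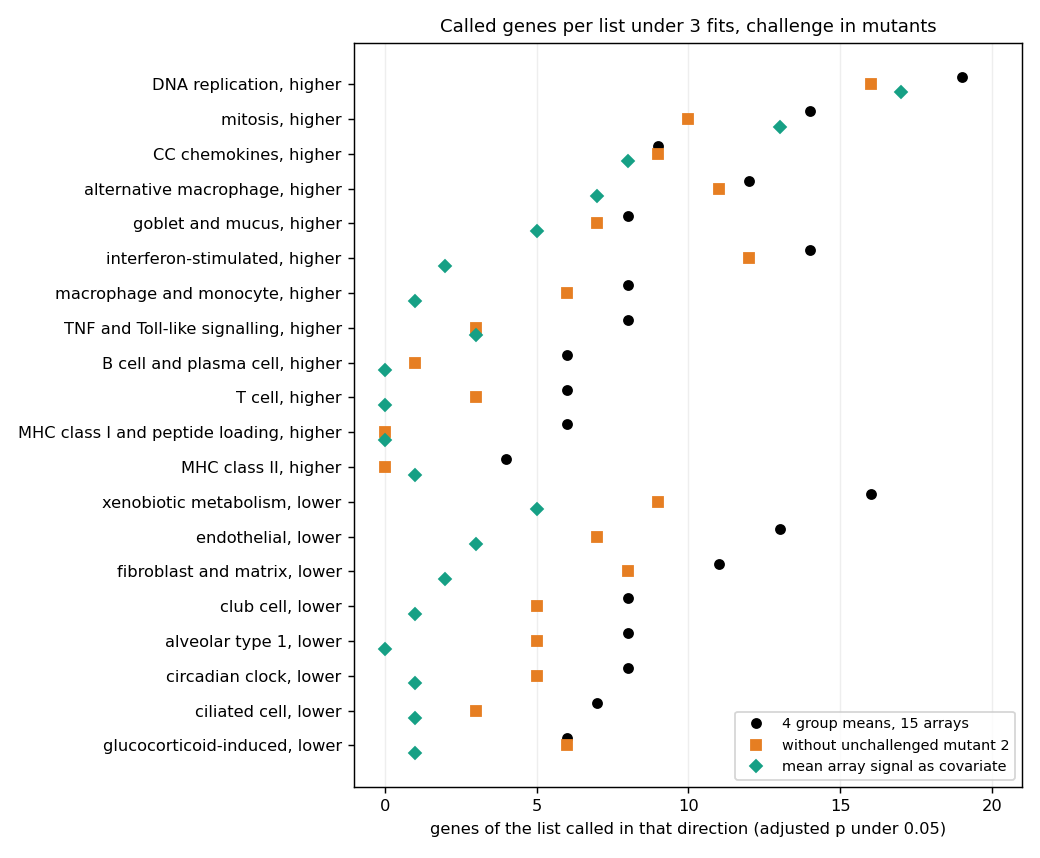
Number of genes called in the named direction in 20 lists with the 4 group means on 15 arrays (circles), without unchallenged mutant 2 (squares) and with mean array signal as a covariate (diamonds). DNA replication (19, 16 and 17), mitosis (14, 10 and 13) and CC chemokines (9, 9 and 8) moved by less than 1.5 times, whereas MHC class I fell to 0 called genes under both other fits.

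The response of mutants was then set beside that of wild types, in which 1140 genes were called higher (11.2%) and 1160 lower (11.4%), 22.6% in either direction. Of the genes called higher in mutants 864 were called higher in wild types too (56.3% of the mutant calls and 75.8% of the wild-type calls), and of those called lower 914 (59% and 78.8%). No gene was called in opposite directions. Genes called in mutants had the same sign in wild types in 98.3% of those higher and 97.9% of those lower. Across 10194 genes, which are not independent, the log2 changes correlated at a Pearson r of 0.831. Challenged wild types mostly gave dimmer arrays too. Their mean signal was 438, 502, 449 and 502 intensity units, against 495, 645, 633 and 624 in unchallenged wild types. The part of brightness in the shared changes was not tested. The median change of genes called higher in mutants was 0.69 in mutants and 0.50 in wild types, and of those called lower -0.75 in mutants and -0.56 in wild types, which the choice of genes by their mutant change can itself produce.

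A direct test of the difference between the responses called 0 probes in limma, with 590 probes at an unadjusted p under 0.05 and a smallest adjusted p of 0.950. The 5 genes with the smallest p were Spink2, Sfrp2, Akap14, Angptl4 and Lrrn4. Spink2, a protease inhibitor, had 6.74, 7.09, 7.35 and 7.01 in challenged mutants, against 5.77, 5.85 and 5.92 in unchallenged mutants, and 6.28, 6.52, 6.71 and 6.39 in challenged wild types, against 6.16, 6.29, 6.28 and 6.63 in unchallenged wild types. Its difference in response was 1.06 ± 0.21 (SE; unadjusted p = 0.000186, adjusted p = 0.950). Sfrp2, a secreted modulator of Wnt signalling, had 9.19, 9.11, 9.36 and 9.25 in challenged mutants, against 7.38, 7.01 and 7.59 in unchallenged mutants, and 8.05, 8.65, 8.45 and 8.52 in challenged wild types, against 7.39, 7.63, 7.75 and 8.00 in unchallenged wild types. Its difference was 1.18 ± 0.24 (SE; unadjusted p = 0.000232, adjusted p = 0.950). For Angptl4 the change was -1.45 ± 0.22 in mutants and -2.79 ± 0.21 in wild types (SE), with a difference of 1.34 ± 0.30 (SE; unadjusted p = 0.000566, adjusted p = 0.950). Akap14 had 7.14, 6.82, 7.17 and 6.48 in challenged wild types, against 7.63, 8.47, 8.00 and 7.80 in unchallenged wild types, and its difference was -1.49 ± 0.33 (SE; unadjusted p = 0.000511, adjusted p = 0.950), of values that were not above background in challenged mutants. Lrrn4 changed by 1.38 ± 0.16 in mutants and 0.43 ± 0.15 in wild types (SE), with a difference of 0.95 ± 0.22 (SE; unadjusted p = 0.000707, adjusted p = 0.950).

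The test of the difference depended on unchallenged mutant 2. Without it 8 probes of 5 genes were called, all with a smaller response in mutants, namely 3 probes of Chil3, 2 of Itgae and 1 each of Mmp12, Retnla and Slc26a4, which were named after their values had been seen. Their differences lay between -2.99 for Retnla and -1.43 for Itgae on the log2 scale, and that of Retnla is bounded by the top of the scale, which it nears in both challenged groups. Retnla stood at 15.41, 15.55, 15.41 and 15.55 in challenged wild types, against 11.23, 10.32, 9.98 and 9.91 in unchallenged wild types, beside the mutant values given above. Chil3 stood at 14.63, 14.67, 14.47 and 14.49 in challenged wild types, against 12.60, 12.36, 12.07 and 12.40 in unchallenged wild types. For both genes unchallenged mutants 1 and 3 were above all 4 unchallenged wild types, and unchallenged mutant 2 was inside their range. With all arrays the difference for Retnla was -2.09 ± 0.69 (SE; unadjusted p = 0.00892, adjusted p = 1.000) and for Chil3 -1.30 ± 0.38 (SE; unadjusted p = 0.00420, adjusted p = 1.000).

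**Figure D5:**
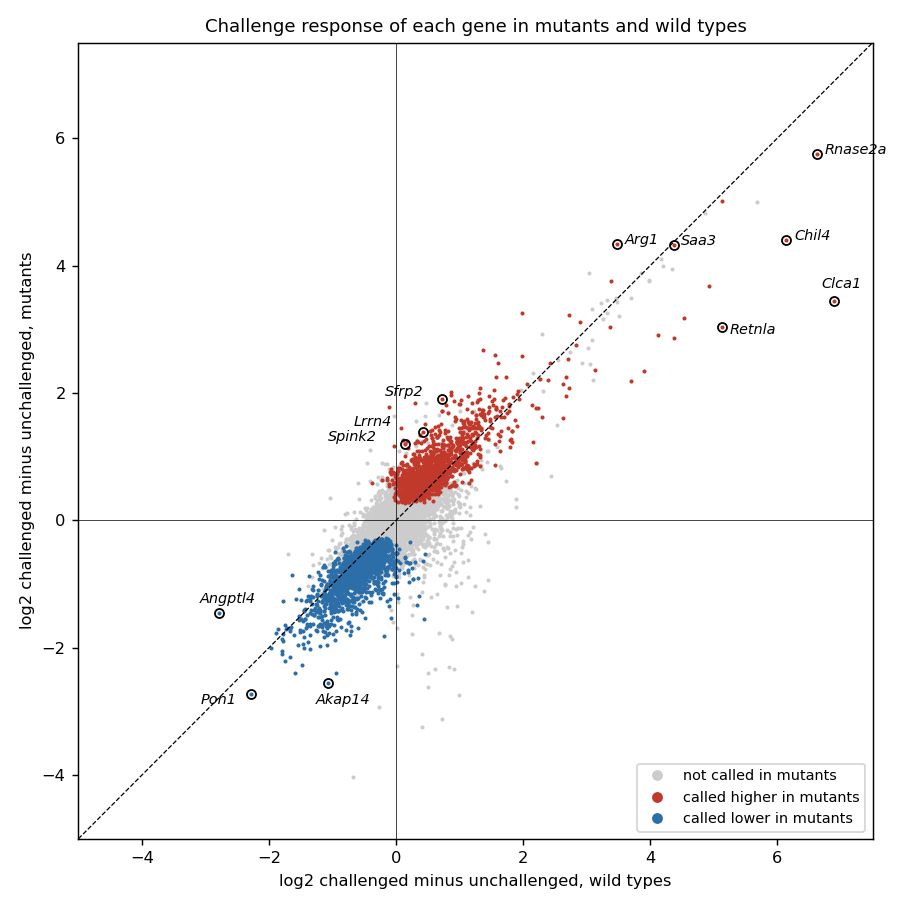
Log2 change after challenge in mutants (vertical axis) against that in wild types (horizontal axis) for 10194 genes, coloured by the call in mutants, with the dashed line marking equal change. Called genes run along the line (Pearson r 0.831 over all genes), while Retnla, Clca1 and Chil4 lie below it and Sfrp2, Spink2 and Lrrn4 above it, none of them past the test of the difference with all arrays.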

How the data were processed

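Total RNA of 15 mouse lungs was measured on 15 Illumina beadchip arrays. The authors deposited a non-normalised table that holds, per array, the intensity of each probe with its detection p-value. They also deposited a series matrix of processed intensities, whose normalisation no source used here states and which were turned to log2 here. The submitters' processing notes name GenomeStudio 2011.1. Groups were taken from the labels. Intensities were background-corrected with normexp on negative controls inferred from the detection p-values, given an offset of 16, quantile-normalised and turned to log2 (neqc, limma 3.58.1, R 4.3.3). Of 25697 probes, 14396 with a detection p-value under 0.05 on at least 3 arrays were tested. List counts are over the members that passed this filter, which can admit genes detected only after challenge. One model with 4 group means was fitted to 15 arrays (lmFit and eBayes, 11 residual degrees of freedom), and p-values were adjusted by Benjamini-Hochberg over all tested probes. An adjusted p under 0.05 made a call. The same model gave the difference between the mutant and wild-type responses.

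In the platform annotation 23978 probes had 1 gene symbol, 0 several and 1719 none. The Entrez identifier of 23962 was found in RefSeq and 0 were renamed. A gene was represented by its brightest tested probe, and genes whose probes were called in opposite directions are marked. For some other called genes a further probe was not called, among them Abca3 (-0.15), Bpifb1 (0.51), Cpa3 (0.52), Slc26a9 (0.16) and Sqle (-0.34). A gene undetected on every array of one group got a lower bound of its fold change, the mean of the bright group over the detection limit of the dim group. The number of arrays limits the precision, and p-values cover the spread between single mice. Promoters of RefSeq (GRCm38.p6) were searched on both strands for 5 motifs.

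Genes were named by rule, namely Ifit2, the 12 largest called rises and the 12 largest called falls with groups apart, up to 4 called members of each of 52 gene lists by smallest p, members whose role or lack of a call is described, and the 5 genes with the smallest p for the difference in response. The lists and the comparison were chosen with earlier results of these data known. Alternatives were other background corrections and normalisations, the series matrix values, other detection filters, trend and robust eBayes, array weights, a minimum of 1.5-fold, only the mutant arrays, the replicate number as a block, mean array signal as a covariate, and leaving out mutant arrays. Leaving out challenged mutants 1 and 2 together was added after seeing the data.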

Additional observations from a re-analysis of the deposited data

Results flagged for a closer look

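Among 243 named genes and 52 gene lists, 16 had 1 challenged mutant array further from the other 3 than Dixon's criterion for 4 samples allows. Chance alone flags about 1 in 20 groups, and 16 is near that share. A single flag therefore does not show that an array is unusual. The values are normalised log2 intensities for genes, and mean log2 levels relative to unchallenged mutants for lists. Challenged mutant 1 stood apart with 10.65 for Rag1, a recombinase of developing lymphocytes, against 5.17 to 5.38 on the other challenged arrays. It also stood apart with 12.54 for the chemokine Ccl9 (11.85 to 11.90 on the others), 8.7 for the chemokine Cxcl14 (9.70 to 9.81) and 10.62 for the brown fat gene Ucp1 (8.63 to 8.88). Its mean level was 2.07 for mitosis (1.09 to 1.14) and 3.66 for thymus (-0.01 to 0.43). Challenged mutant 2 stood apart with 9.98 for the neutrophil chemokine Cxcl1 (8.71 to 8.83).

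Challenged mutant 4, the dimmest array, stood apart in 9 results. It was high for Ifit2, at 5.98 (5.05 to 5.20), which was undetected on all mutant arrays. It was high for Mvd, an enzyme of cholesterol synthesis, at 8.63 (7.90 to 8.02), for Nkg7, a granule protein of cytotoxic lymphocytes, at 8.72 (7.92 to 8.04), and for the peptide transporter Tap1, at 9.21 (8.32 to 8.40). It was low for the alarmin Il33, at 10.68 (11.66 to 11.77), for the aminotransferase Oat, at 11.2 (11.87 to 11.92), for the clock gene Rora, at 6.03 (7.29 to 7.48), and for the mesenchymal factor Tcf21, at 6.34 (8.15 to 8.26). Its mean level of type 2 cytokines and alarmins was 0.120 (0.64 to 0.70).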

How the results depend on the processing

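The limma fit called 4392 probes in mutants, 1944 higher and 2448 lower, and the difference in response 0. After median scaling it called 6670 (624 higher, 6046 lower), with a minimum of 1.5-fold 227 (119 and 108), on only the mutant arrays 2531 (1055 and 1476) and with mean signal as a covariate 563 (297 and 266). With the covariate 385 of the original calls were kept and 518 turned sign, and after median scaling 391 turned sign. Leaving out 1 mutant array gave 2310 to 4621 calls, 1018 to 2049 higher and 1292 to 2572 lower, with the lowest counts without unchallenged mutant 2. The difference in response then gave 0 to 8 probes, and 1 under cyclic loess (Ifit2) and 1 without challenged mutants 1 and 2 (Fam167a). Ifit2 was undetected on all 7 mutant arrays, so its difference sets wild-type values against mutant background. The gap in mean signal was -244.8 to -186.9 without 1 array, where group sizes no longer allow an exact p under 0.05. Named genes that turned were Cftr (-0.069) and Col1a2 (-0.044) after median scaling. With the covariate they were Ager (0.095), Cd22 (-0.62), Cd79a (-0.14), Cxcl12 (0.22), Cxcr5 (-0.29), H2-Oa (-0.38), Icam1 (0.29), Jchain (-0.24), Nkg7 (-0.22), Sqle (0.22) and Tlr1 (-0.17). In promoters cut to 150 bases before the start, 2.92% of tested genes held the STAT6 pattern, 7.52% CACGTG and 7.15% TTTGAA. The other settings gave 3125 to 5267 calls, and the cause of the changes was not tested. The replicate number as a block gave 3446 calls. Samples were not treated as pairs, because the labels give genotype and challenge and no batch. Of 21 same-number correlations of deviations 9 were over 0.1 (median 0.0663), against 16 of 63 between different numbers (median -0.0294). Among mutants 1 of 3 was. Same-number arrays thus deviated together somewhat more often, and a shared effect of the number was not tested further. Of 216 called named genes, 168 lost the call under at least 1 of 22 settings. Signal over background limits dim genes, since 45.0% of probes on challenged mutant arrays were detected.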
